A study of Mus musculus with 6 samples.

Results

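Marker genes of endothelial cells (ECs), the cells that line every blood vessel, were followed in bulk RNA-seq of mouse aorta. The genes were taken by symbol from a fixed list of 34 names, and all 34 were found among the 55487 genes of the count table. Aortas of 3 control and 3 Prdm16 iSM KO mice were compared, all of them male and C57BL/6. Every mouse carried the Myh11-CreERT2 transgene, a tamoxifen-inducible Cre that is active in smooth muscle cells and sits on the Y chromosome. The iSM KO mice were Prdm16 F/F, with a floxed exon of the transcription factor gene Prdm16 in each allele, and the controls were Prdm16 W/W. Both groups were injected with tamoxifen (1 mg per mouse and day for 10 days) from 8 weeks of age, and the aortas were taken 60 days after a tamoxifen-free interval of 2 weeks, with no other treatment, a state that the labels call baseline. The Cre acts in smooth muscle and not in ECs, so what was measured in the EC genes is their level in an aorta whose smooth muscle cells had lost Prdm16. Which cells of the wall gave the RNA of each of these genes was not measured. The adventitia, the outer layer of the wall, had been removed before RNA extraction.

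ECs form a single layer between the blood and the smooth muscle of the wall. They hold the layer together with junction proteins, sense growth factors of the VEGF and angiopoietin families through receptor tyrosine kinases, release nitric oxide that relaxes the smooth muscle below, and keep the blood from clotting on the wall. Much of this programme is switched on by transcription factors of the ETS family, such as Erg and Fli1, and of the SoxF group, Sox7, Sox17 and Sox18. In a whole aorta ECs are a small part of the cells, and the RNA is mostly that of smooth muscle.

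The 6 libraries held 24911609 to 40460467 counts, of which small structural RNA genes took 22.8% to 28.1%. Control 3 had the fewest counts and the largest structural RNA share. Its share of protein-coding counts was 59.0%, against 64.6% to 67.6% in the other libraries. The smooth muscle myosin gene Myh11 lay at 7422 to 9223 CPM (counts scaled for library size), which marks the samples as smooth muscle tissue, and the defining EC markers Pecam1 and Vwf were well above 0 in each library. Prdm16 itself was at 183, 223 and 178 CPM in controls 1 to 3 and at 93.6, 113 and 79.7 CPM in iSM KO 1 to 3. It fell by 1.03 on the log2 scale (SE 0.14, FDR 0.00265), by the quasi-likelihood test of edgeR adjusted over 16565 genes after Benjamini-Hochberg, and the groups did not overlap. The gene count covers all exons of Prdm16 and all cells of the aorta.

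Of the 34 EC genes, 31 passed the filter on low counts, and Gpihbp1, Aplnr and Prox1 did not. The clearest single difference was in Flt1, which encodes VEGF receptor 1 and rose in iSM KO aortas, from 34.7 ± 5.46 to 53.1 ± 4.60 CPM (mean ± SD, n = 3 per group). The other 30 tested genes all had a lower fitted level in iSM KO, with log2 fold changes of -1.07 to -0.18, but none of them passed the test. Robo4 and Mmrn1 passed the count filter through the controls only, and among the 29 genes with over 10 counts in all 6 libraries 28 were fitted lower, at -1.01 to -0.18, with a median over the 29 of -0.65 (-0.020 over all such genes, of which 53.5% were fitted lower). Across the 31 the median log2 fold change was -0.66, beside -0.014 over all tested genes, of which 52.4% were fitted lower. None of the 31 was called lower at an FDR under 0.05 by edgeR, against 3.30% of all tested genes, and DESeq2 called 0 as well, against 4.64%. With an unadjusted p under 0.05, 6 of the 31 were lower, against 11.0% of all genes. One gene, Flt1, was called higher, against 4.26% of all genes, and in either direction 7.56% of all genes were called. With the added demand of a fold change over 2, which the study used, 0 EC genes and 2.78% of all genes passed. In a whole-tissue sample, fewer ECs and less RNA per EC cannot be told apart.

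The EC genes varied widely between samples of the same group. The median SD of log2 CPM was 0.565 among controls and 0.789 among iSM KO for the EC genes, against 0.188 and 0.133 for all tested genes. The highest library exceeded the lowest by a median ratio of 4.03, against 1.48 over all genes. The 95% confidence intervals were wide, and a missed threshold here does not show that the groups had equal levels. Among the 31 tested genes, only Erg had groups without any overlap and iSM KO lower (13.0% of all genes), and only Flt1 had them with iSM KO higher (15.0% of all genes).

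**Figure D1:**
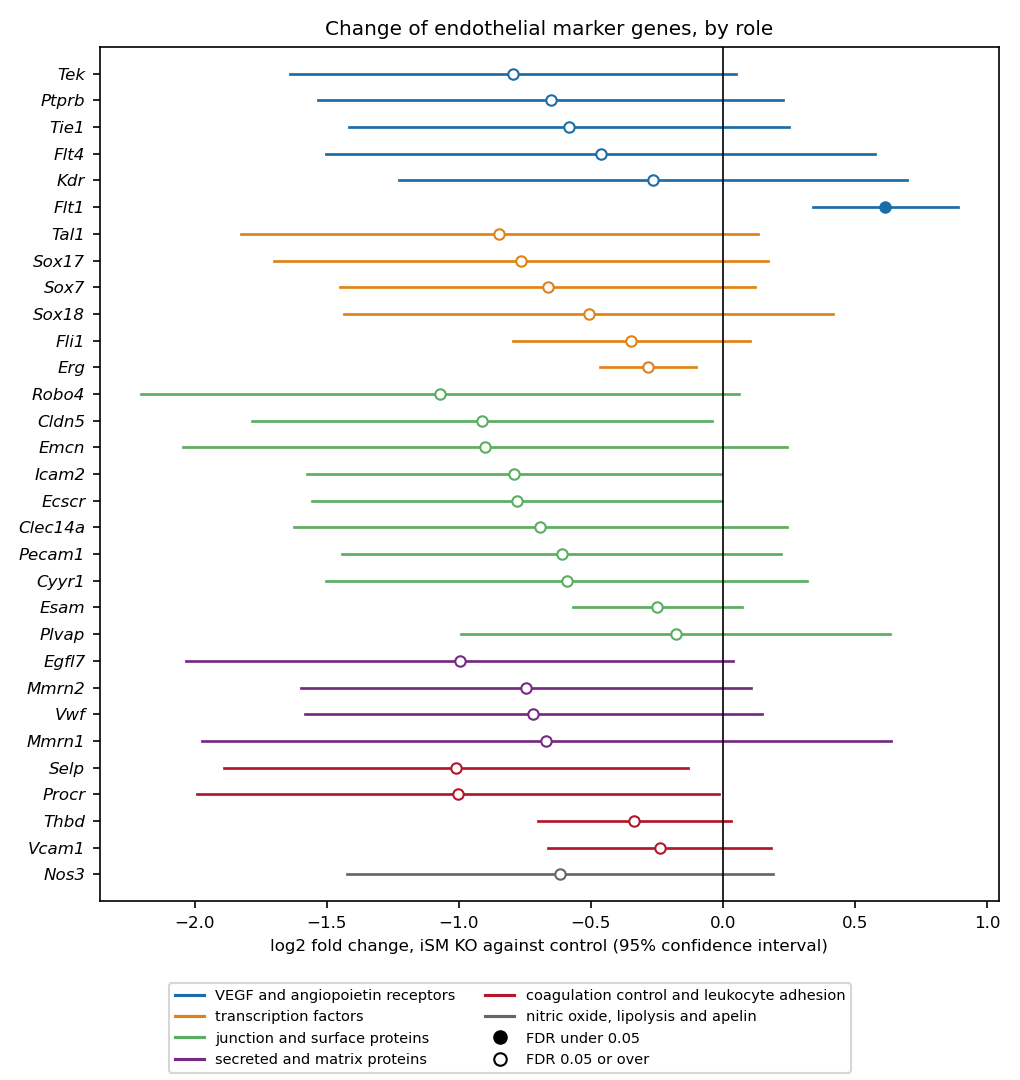
Log2 fold change of iSM KO against control (x axis) for each of the 31 tested EC genes (y axis), grouped by role, with 95% confidence intervals from edgeR's quasi-likelihood test. Flt1, the filled point, lies at 0.61, whereas the open points of the other 30 genes lie between -1.07 and -0.18 with intervals that mostly reach 0.

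Pecam1 (ENSMUSG00000020717, GRCm38 chr11:106654217-106750628, minus strand) encodes the adhesion molecule PECAM-1 of EC junctions and had the highest level per length of the 34 genes, 36.2 CPM per kilobase of exon. It was at 311, 332 and 175 CPM in controls 1 to 3 and at 88.6, 173 and 275 CPM in iSM KO 1 to 3. Controls 1 and 2 were above every iSM KO sample, whereas control 3 lay among them, and iSM KO 3 was more than 3 times as high as iSM KO 1. The log2 fold change was -0.61 (SE 0.37, 95% confidence interval -1.44 to 0.22, FDR 0.368 by edgeR's quasi-likelihood test).

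Vwf (ENSMUSG00000001930, GRCm38 chr6:125546774-125686679, plus strand) encodes von Willebrand factor, which ECs store and release to capture platelets. Its CPM values were 385, 448 and 202 in controls 1 to 3 and 110, 193 and 327 in iSM KO 1 to 3. The order of the 6 samples was that of Pecam1, with control 2 highest and iSM KO 1 lowest, and the groups overlapped through control 3 and iSM KO 3. The log2 fold change was -0.72 (SE 0.38, FDR 0.310 by edgeR's quasi-likelihood test). Per kilobase of exon Vwf stood at 17.3 CPM, close to the next genes in level, Erg above it (19.8) and Ptprb and Thbd below it (16.9 and 15.6).

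**Figure D2:**
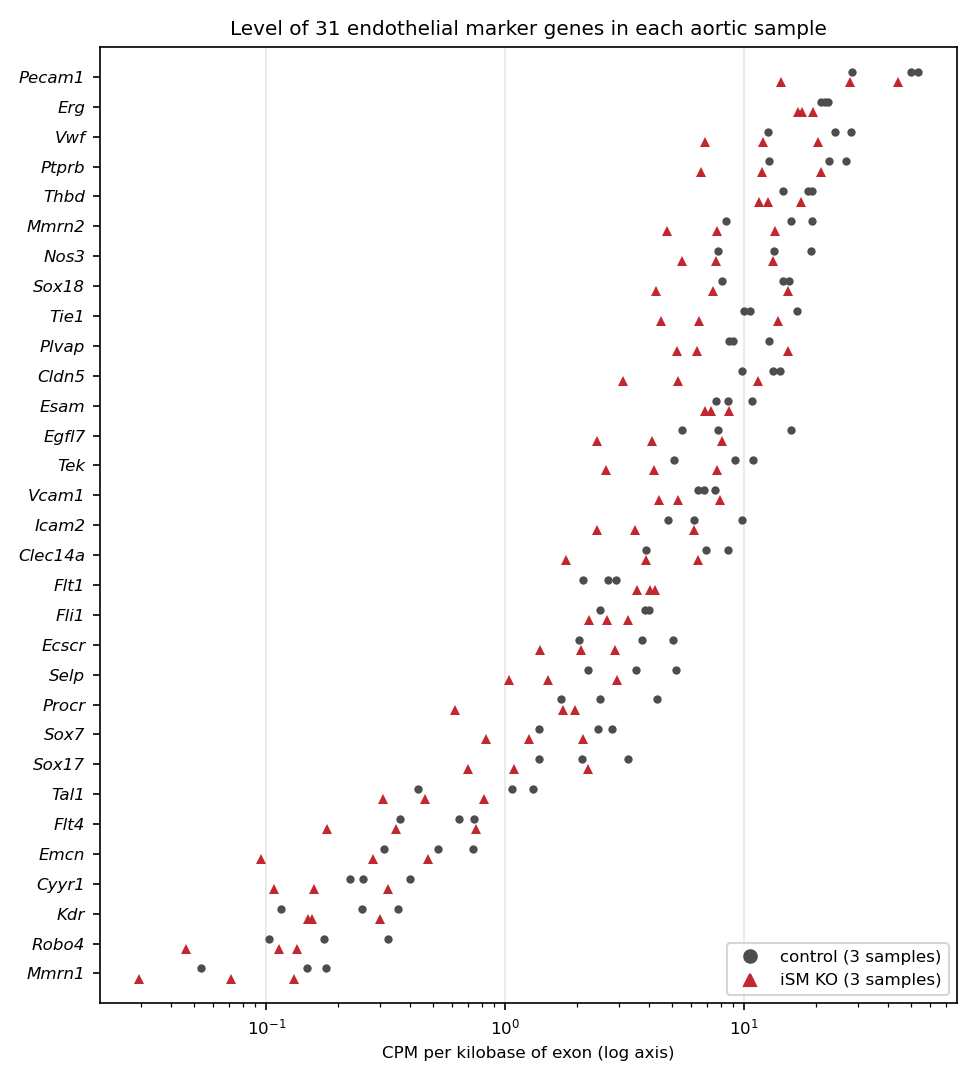
CPM per kilobase of exon (x axis, log scale) of the 31 tested EC genes (y axis, ordered by mean level) in each control (circles) and iSM KO sample (triangles). The genes span from 36.2 CPM per kilobase for Pecam1 to 0.102 for Mmrn1, and for most genes the circles and triangles interleave, with Flt1 and Erg as the exceptions.

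Flt1 (ENSMUSG00000029648, GRCm38 chr5:147561604-147726011, minus strand) encodes VEGF receptor 1, which binds VEGF-A, VEGF-B and placental growth factor and is known as a trap that limits signalling through VEGF receptor 2. Its level was 39.1, 36.3 and 28.6 CPM in controls 1 to 3 and 48.1, 54.2 and 57.1 CPM in iSM KO 1 to 3. All 3 iSM KO samples were above all 3 controls, and iSM KO 1, the lowest sample for 25 of the 31 EC genes, was higher for Flt1 than any control. The log2 fold change was 0.61 (SE 0.12, 95% confidence interval 0.34 to 0.89, FDR 0.0175 by edgeR's quasi-likelihood test). DESeq2 called it too, with an adjusted p of 0.000224. The call was lost without iSM KO 2 (FDR 0.0822) or without iSM KO 3 (FDR 0.0531), with log2 fold changes of 0.60 and 0.55.

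The other receptors of the VEGF and angiopoietin families were fitted lower without passing the test. Kdr, the gene of VEGF receptor 2, which carries most VEGF signalling in ECs, was low in these aortas, at 1.04, 3.22 and 2.26 CPM in controls and 1.40, 1.35 and 2.71 CPM in iSM KO. Per kilobase of exon, Kdr stood at 0.221 CPM and Flt1 at 3.25 CPM, so receptor 1 had the higher RNA level of the pair in this tissue. The Kdr groups overlapped, and its log2 fold change of -0.27 had the interval -1.23 to 0.69. Flt4, VEGF receptor 3 of lymphatic and some venous vessels, ranged from 1.47 to 6.18 CPM, and both of these ends were iSM KO samples.

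Tek encodes TIE2, the receptor of the angiopoietins, and Tie1 and Ptprb encode a related receptor and the phosphatase that dampens TIE2. Tek was at 43.0, 51.1 and 24.0 CPM in controls and at 12.4, 19.7 and 36.2 CPM in iSM KO, a log2 fold change of -0.79 (FDR 0.252 by edgeR's quasi-likelihood test). Ptprb, at 301, 356 and 169 CPM in controls and 87.5, 158 and 280 CPM in iSM KO, ranked the 6 samples in the same order as Pecam1 and Vwf. Tie1 had a log2 fold change of -0.58, with control 2 highest at 81.3 CPM and iSM KO 1 lowest at 22.1 CPM. For all 3 genes control 3 was the lowest control and iSM KO 3 the highest iSM KO sample, and in each iSM KO 3 stood above control 3.

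Erg (ENSMUSG00000040732, GRCm38 chr16:95359169-95586593, minus strand) encodes an ETS factor that maintains EC identity. It was at 72.7, 77.9 and 75.4 CPM in controls 1 to 3 and at 60.2, 58.1 and 67.3 CPM in iSM KO 1 to 3. Every iSM KO sample was below every control, and the ratio of the highest to the lowest of the 6 samples, 1.34, was the smallest among the 31 genes. The log2 fold change was -0.28 (SE 0.08, 95% confidence interval -0.47 to -0.10), with an unadjusted p of 0.00624 and an FDR of 0.0677 by edgeR's quasi-likelihood test. It did not pass in any of 11 alternative fits, where the FDR lay between 0.0527 and 0.283. Fli1, the related ETS factor, had overlapping groups at 7.78 to 13.9 CPM and a log2 fold change of -0.35.

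The SoxF genes followed the wide pattern of Pecam1 and Vwf and not the narrow one of Erg. Sox17, an arterial EC factor, was at 9.96, 15.5 and 6.62 CPM in controls and 3.33, 5.18 and 10.6 CPM in iSM KO, with a log2 fold change of -0.77. Sox18 and Sox7 had log2 fold changes of -0.51 and -0.66, and both were lowest in iSM KO 1. Tal1, a factor shared by blood and endothelial precursors, had a log2 fold change of -0.85, between 1.35 CPM in iSM KO 2 and 5.72 CPM in control 2. Some Sox17 reads are uncertain in their assignment: its counts were not whole numbers in 5 libraries, and it overlaps Gm37587 on the opposite strand.

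The promoters of the EC genes were also described by the short core bound by ETS factors. RefSeq promoters (GRCm38.p6) were found for 17 of the 34 genes, 23 promoters in all, and the 250 bases before each start were searched on both strands for 4 spellings of the ETS core and for a SOX core. The spelling CCGGAA was in 4.35% of the 23 promoters, against 12.03% of all 32851 promoters. The spelling CAGGAA was in 43.5%, against 25.7% of all, and the spelling AGGAAG in 39.1%, against 29.5%. The shorter GGAAG, which lies within the one before, was in 78.3%, against 64.1%, and the SOX core ACAAT in 30.4%, against 27.7%. The run AGGAAG, or CTTCCT on the other strand, was in the promoters of Flt1, called higher, and also in those of Cyyr1, Egfl7, Emcn, Erg, Robo4, Selp and Tie1, all fitted lower. The 4 windows of 30 bases shown here hold this match in capitals, at chr5:147726047-147726076 and chr5:147726123-147726152 (Flt1, minus strand), chr1:164115188-164115217 (Selp, plus strand) and chr3:137340973-137341002 (Emcn, plus strand). The match begins 53 and 129 bases before the start of Flt1, 64 before that of Selp and 93 before that of Emcn. Emcn held another match, not shown, 174 bases before its start.
Flt1 near: aggtgccggggtAGGAAGtgggctggggaa
Flt1 far: cgcccctccgggAGGAAGaagagggtaggt
Selp: tggcaacagctcCTTCCTagctgccaacac
Emcn: agtggctgccaaAGGAAGagagaggaaaaa
A match is a run of letters and was not measured as a binding site. The matched promoter of Flt1 held AGGAAG and GGAAG but not the other 3 runs, while CAGGAA was in those of 9 other EC genes and ACAAT in those of 7.

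The genes of junction and surface proteins made up the largest role group, with 10 of 10 fitted lower, a median log2 fold change of -0.74 and none called. Cldn5, the claudin that seals EC tight junctions, was at 19.9, 18.7 and 13.8 CPM in controls and at 4.41, 7.47 and 16.1 CPM in iSM KO. Controls 1 and 2 were the highest samples, but iSM KO 3 was above control 3, and the log2 fold change of -0.91 (SE 0.38) gave an FDR of 0.206 by edgeR's quasi-likelihood test. Robo4, a guidance receptor that stabilises vessels, had a log2 fold change of -1.07 on levels of 0.245 to 1.72 CPM. Its 31, 66 and 13 counts in controls took it past the count filter, which its 10, 21 and 26 counts in iSM KO would not have done.

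Icam2, a ligand of leukocyte integrins, and Ecscr, a surface protein of EC migration, had nearly equal log2 fold changes of -0.79 and -0.78. Emcn, a sialomucin of the EC surface, had -0.90 and the largest spread of the 31 genes, with a highest to lowest ratio of 7.68. Clec14a, a lectin-domain receptor, had -0.69, and the membrane protein gene Cyyr1 had -0.59, with counts that were not whole in 6 libraries and a gene on the same strand, Gm2541, overlapping it. The smallest values in the group belonged to Esam, a junction adhesion molecule (-0.25), and Plvap, which forms the diaphragms of fenestrae (-0.18). For Plvap the highest sample was iSM KO 3 at 30.4 CPM and the lowest iSM KO 1 at 10.4 CPM, so the whole range of its 6 values lay within the iSM KO group.

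Among the secreted and matrix proteins, all 4 of Egfl7, Mmrn2, Vwf and Mmrn1 were fitted lower. Egfl7, a matrix protein that guides vessel sprouting, was at 27.8, 56.0 and 19.7 CPM in controls and 8.63, 14.7 and 28.8 CPM in iSM KO. Control 2 stood above the sum of the other controls and iSM KO 3 was close to control 1, and the log2 fold change of -0.996 had an SE of 0.46 and an FDR of 0.242 by edgeR's quasi-likelihood test. Egfl7 overlaps the precursors Mir126a and Mir126b, and 64 bases of Agpat2 on the opposite strand, so a part of its reads may belong to them. Mmrn2, a ligand of CLEC14A in the vessel matrix, ranged from 18.8 to 76.5 CPM with a log2 fold change of -0.75. Mmrn1, which is stored in platelets and made by lymphatic ECs, had at most 1.05 CPM in each library.

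The 4 genes of coagulation control and leukocyte adhesion split by size of difference. Selp, the P-selectin that ECs and platelets bring to their surface to catch leukocytes, had the lowest unadjusted p of the group, 0.0286. Its values were 15.6, 22.9 and 9.80 CPM in controls and 4.56, 6.67 and 13.0 CPM in iSM KO, a log2 fold change of -1.01 (SE 0.39, FDR 0.167 by edgeR's quasi-likelihood test). Controls 1 and 2 were above all iSM KO samples, and iSM KO 3 was above control 3. Procr, the protein C receptor, had a log2 fold change of -1.003 between 1.25 and 8.78 CPM, and thrombomodulin, Thbd, which turns thrombin towards protein C, had -0.34 between 42.7 and 71.6 CPM. Vcam1, an adhesion molecule that activated ECs and also smooth muscle cells express, had -0.24, and its highest value, 69.9 CPM, was in iSM KO 3. Selp counts were not whole in 5 libraries, and Gm16587 and Gm16548 overlap it on the opposite strand.

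Nos3, the endothelial nitric oxide synthase, was at 55.1, 78.7 and 32.0 CPM in controls and at 22.6, 31.5 and 54.4 CPM in iSM KO. The 2 lowest samples were iSM KO, but control 3 was barely above iSM KO 2 and iSM KO 3 nearly equalled control 1, and the log2 fold change was -0.62 (SE 0.36, FDR 0.346 by edgeR's quasi-likelihood test). Its counts were not whole in 6 libraries, and Gm15587 and Atg9b overlap it on the opposite strand.

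Gpihbp1, Aplnr and Prox1 were nearly silent, with at most 27 counts in a library. Gpihbp1, which carries lipoprotein lipase across capillary ECs, had 2, 27 and 11 counts in controls and 0, 0 and 1 in iSM KO. The ratio of the summed counts, corrected for depth, was 0.0213 with an exact counting interval of 0.000527 to 0.126, which does not cover the spread between samples. When all genes with a count were tested, its FDR by edgeR's quasi-likelihood test was 0.00471 (2.81% of all genes were called lower in that fit). The groups did not overlap, but only by the 2 counts of control 1 against the 1 count of iSM KO 3. Aplnr, the apelin receptor, had 8, 24 and 5 counts in controls and 4 in each iSM KO sample, a ratio of 0.277 (0.131 to 0.543). Prox1, the master factor of lymphatic ECs, had 7, 6 and 3 counts in controls and 10, 1 and 18 in iSM KO, a ratio of 1.55 (0.813 to 3.05).

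The 6 samples fell into much the same order for gene after gene. Control 2 was the highest library for 24 of the 31 EC genes and iSM KO 1 the lowest for 25. Within controls, control 3 was lowest for 27 genes and control 2 highest for 27, and within iSM KO, sample 1 was lowest for 26 and sample 3 highest for all 31. All 4 of these positions held together in 22 of the 31 genes, against 4.39% of all tested genes. Sample iSM KO 3 exceeded control 3 in 29 of the 31 EC genes, whereas over all genes it did so in 47.9%. Measured as log2 CPM minus the gene's mean over the 6 samples, the median EC gene was at 0.81 in control 2 and at -1.07 in iSM KO 1, while the median of all tested genes lay between -0.0026 and 0.020 in every library.

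**Figure D3:**
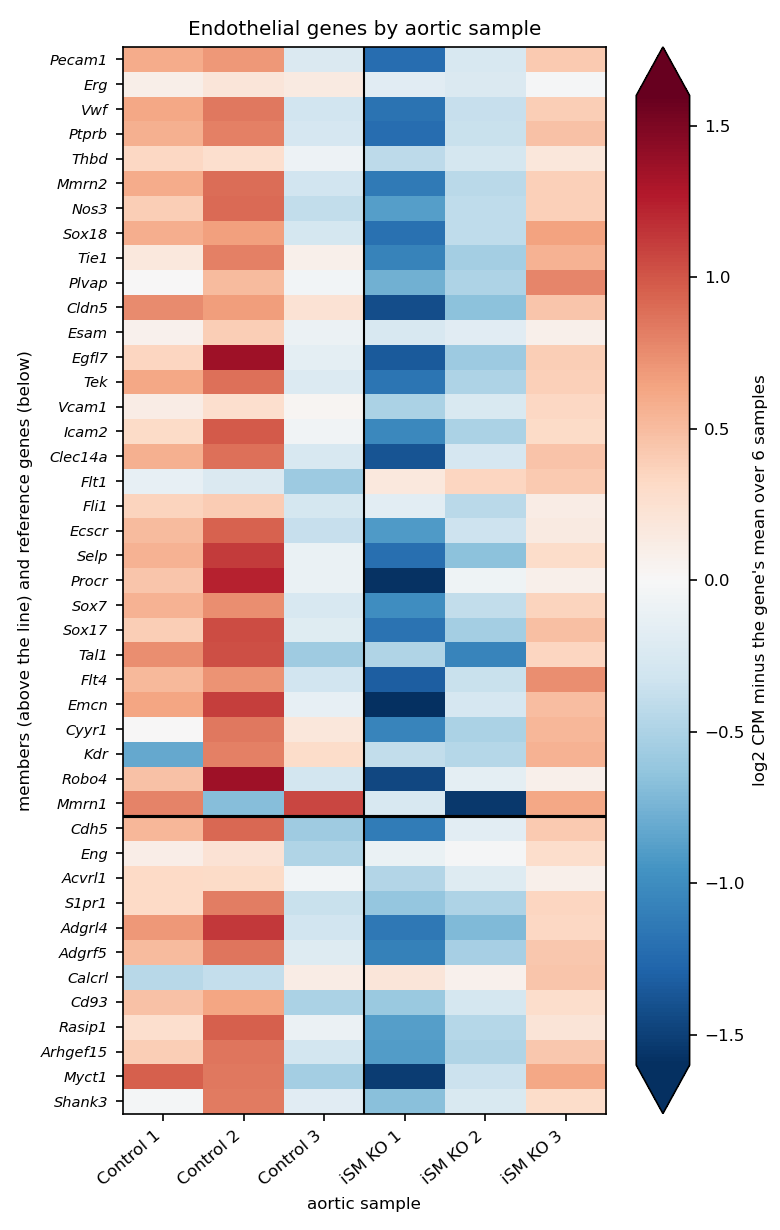
Log2 CPM of each of the 31 tested EC genes (upper rows, ordered by level) and 12 other endothelial genes (lower rows) minus that gene's mean over the 6 samples, one column per sample. Control 2 is red and iSM KO 1 blue for most genes and iSM KO 3 is red for all but a few, whereas Flt1 is blue in the controls and red in all 3 iSM KO samples.

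The comparison depended on single samples. Without iSM KO 3, the median log2 fold change of the EC genes was -1.17, and 7 of them, Icam2, Tek, Selp, Vcam1, Tie1, Plvap and Cldn5, were called lower by edgeR's quasi-likelihood test, against 3.21% of all genes in that fit. Without iSM KO 1 the median was -0.37 and none was called lower, against 1.44%. With all genes tested in place of those past the count filter, 7 of the 34 were called lower, namely Icam2, Tek, Gpihbp1, Selp, Egfl7, Procr and Cldn5, against 2.81% of all genes. Those of the 7 tested in both fits had nearly the same fold changes without the filter and smaller standard errors. For Selp the standard error was 0.39 in the main fit and 0.25 without the filter, and for Tek 0.37 and 0.23. The 4 names Icam2, Tek, Selp and Cldn5 were in both sets, which were read after their values were seen.

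To take out a shift shared by endothelial genes, each EC gene was also set against 12 other endothelial genes: Cdh5, Eng, Acvrl1, S1pr1, Adgrl4, Adgrf5, Calcrl, Cd93, Rasip1, Arhgef15, Myct1 and Shank3. The geometric mean of these 12 was 24.6, 30.8 and 15.9 CPM in controls 1 to 3 and 11.6, 15.5 and 24.7 CPM in iSM KO 1 to 3, the order of Vwf with control 1 and iSM KO 3 exchanged. None of the 12 was called by edgeR in the comparison on library size. By edgeR's unadjusted p under 0.05, 3 were lower, against 11.0% of all genes, and 1 higher, against 1842 of 16565 genes. Eng and Calcrl were fitted higher, with log2 fold changes of 0.08 and 0.46. Relative to the 12 genes, the median log2 fold change of the 31 EC genes was -0.24, with 23 lower and 8 higher by the fitted value. The choice of reference moved this: with the 12 genes summed, so that the most abundant weigh most, the median was -0.46 and 30 were fitted lower, and without Eng and Calcrl, left out after their values were seen, it was -0.098 and 20 were fitted lower. In the fit on all 12 genes, 0 of 31 passed edgeR's quasi-likelihood test, against 1.38% of all genes. The standard error on this scale was close to 0.49 for most EC genes, in a fit that shares its spread across all genes, and differences of the size seen were not detectable.

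On the same relative scale, read sample by sample, Flt1 was 0.67, 0.24 and 0.85 above the 12 genes in controls 1 to 3 (log2) and 2.05, 1.80 and 1.21 above them in iSM KO 1 to 3. The groups did not overlap, as for 7.17% of all tested genes on this scale. The difference of the means was 1.10, with an FDR of 0.462 in the relative fit by edgeR. On library size the log2 fold change of Flt1 was 0.61, so the larger relative value also holds the lower level of the 12 genes in iSM KO. Within iSM KO, relative Flt1 was highest in sample 1 and lowest in sample 3, the reverse of its CPM order (48.1, 54.2 and 57.1 in iSM KO 1 to 3). The 12 genes varied more, at 11.6, 15.5 and 24.7 CPM, so dividing by their level sets the relative order. Tek, Emcn, Sox7, Icam2, Selp and Aplnr were lower in all iSM KO samples than in all controls on this scale, with differences of -0.38, -0.60, -0.22, -0.34, -0.57 and -1.08 in turn, where 1.27% of all tested genes were separated in this direction and the median of all tested genes was a log2 fold change of 0.48. Of these 6 genes, all but Aplnr had passed the count filter. Erg, whose plain CPM did not overlap, overlapped once it was set against the 12 genes, with a difference of 0.19.

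Of the 50 other genes in the fixed endothelial lists (the 12 above included), 45 could be tested. Of these, 4 were called higher and 8 lower (in either direction 7.56% of all genes). The lists held arterial, venous and capillary and flow-response genes, and the ligands and co-receptors of the VEGF and angiopoietin families. The ligands and co-receptors, which are not particular to ECs, gave 2 of the higher and 3 of the lower calls, and the 12 genes above gave 0. Arterial genes gave a single call, Unc5b, a netrin receptor of arterial and tip ECs, which rose from 42.5, 43.4 and 45.2 to 74.3, 80.5 and 79.0 CPM (log2 fold change 0.83, SE 0.07, FDR 0.000286 by edgeR's quasi-likelihood test). The venous and capillary list gave 5 calls among 7 tested genes, 1 higher and 4 lower. Nr2f2, the venous identity factor, rose by a log2 fold change of 0.34, a call that was lost when any 1 of the 6 samples was left out, and Rgcc, Fabp4, Cd36 and Lpl fell, with log2 fold changes of -2.93, -2.69, -2.52 and -1.62. Rgcc passed the count filter through the controls only (63, 106 and 97 counts, against 11, 9 and 22 in iSM KO), and it was called with no filter too. Cd36 kept its call in 7 of 11 alternatives and lost it without control 2, control 3, iSM KO 1 or iSM KO 2, with an FDR of up to 0.0954. Nostrin, which traffics the nitric oxide synthase, passed the count filter through the controls only (23, 15 and 11 counts, against 4, 6 and 7), and its call at a log2 fold change of -1.73 was lost with no filter (FDR 0.0976 by edgeR's quasi-likelihood test). It kept the call in 3 of 11 alternatives, with an FDR of up to 0.158 when 1 sample was left out and a call only without control 2. In a separate lymphatic list, none of 5 tested genes was called by edgeR, and Pdpn, which passed the filter through the controls only, was lower at an unadjusted p under 0.05.

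Fabp4, Cd36 and Lpl are also fat cell genes, and the tested fat cell markers other than Pparg were fitted lower too. Fabp4 was at 19.9, 54.5 and 52.4 CPM in controls and at 5.81, 5.84 and 7.96 CPM in iSM KO. The summed level of 8 adipocyte markers was 13.9, 139 and 76.6 CPM in controls and 12.7 to 16.4 CPM in iSM KO. The sum includes Pparg, which lay at 3.22, 4.57 and 3.77 CPM in controls and at 7.77, 9.70 and 8.94 CPM in iSM KO. Pparg was thus a large part of each iSM KO sum. Of the 7 that were tested, 4 (Adipoq, Plin1, Cidec and Cfd) were called lower, against 3.30% of all genes, and Pparg was called higher, against 4.26%. Adipoq and the uncalled Retn passed the count filter through the controls only, and Adipoq was called with no filter too. Control 1, with the lowest of these sums among the controls, was also the control with the lowest Fabp4, Cd36, Lpl, Rgcc and Gpihbp1, whereas it was above control 3 for Pecam1 and Vwf. The part of fat cell RNA in these calls was not tested.

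The ligands and co-receptors of the receptors above gave 5 calls among 10 tested genes, against 7.56% of all genes. Pgf, placental growth factor, which binds VEGF receptor 1 but not receptor 2, was at 2.56, 4.55 and 5.40 CPM in controls and at 14.1, 14.4 and 13.2 CPM in iSM KO. All iSM KO samples were more than 2 times as high as any control, and the log2 fold change was 1.75 (SE 0.23, FDR 0.00229 by edgeR's quasi-likelihood test). Nrp2, a co-receptor of VEGF and semaphorin signalling, rose from 10.8, 8.11 and 10.7 to 27.3, 20.1 and 24.2 CPM, a log2 fold change of 1.28 (SE 0.15). Both kept their calls in 11 of 11 alternatives. The other ligands of Flt1 did not pass the test: Vegfa had a log2 fold change of -0.29 and Vegfb of 0.11, each with overlapping groups, and the co-receptor Nrp1 had 0.07.

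Among the ligands of Tek, Angpt4 fell from 8.38, 7.33 and 5.82 to 1.59, 2.09 and 1.80 CPM (log2 fold change -1.98, SE 0.19) and Angpt1, the main activating ligand, from 4.32, 2.75 and 2.30 to 0.686, 0.887 and 1.504 CPM (-1.62, SE 0.35). Angpt4 kept its call in 11 of 11 alternatives. Angpt1 kept it in 7 and lost it in a fit with the replicate number as a block and without control 1, iSM KO 1 or iSM KO 2, with an FDR of up to 0.111. Angpt2, the ligand that ECs themselves make and that often opposes Angpt1, had a log2 fold change of 0.30 and an FDR of 0.0626 by edgeR's quasi-likelihood test, with no overlap between groups. Vegfd, a ligand of Flt4, fell by 0.76, a call lost without iSM KO 1 (FDR 0.0549). These ligands are made by several cell types of the wall, and the cell source was not measured.

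**Figure D4:**
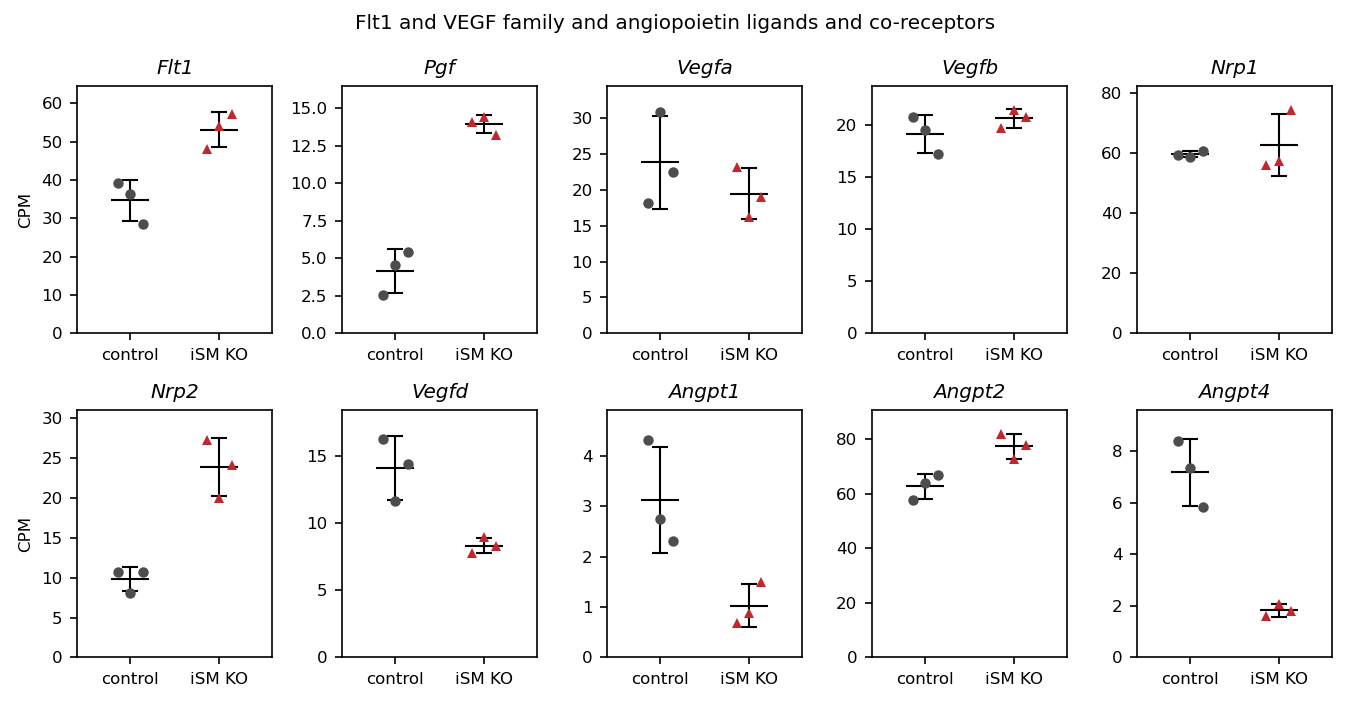
CPM (y axis, from 0, scaled per gene) of Flt1 and of 9 ligands and co-receptors in each control (circles) and iSM KO sample (triangles), with mean and SD bars, n = 3 per group. Flt1, Pgf and Nrp2 were higher in every iSM KO sample than in every control and Vegfd, Angpt1 and Angpt4 lower, while Vegfa, Vegfb and Nrp1 overlapped.

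Markers of other cells of the wall were read beside the EC genes. The 10 smooth muscle markers summed to 25359 to 29951 CPM in controls and 26920 to 29673 CPM in iSM KO. Of them 2, Myocd and Des, were called higher, against 4.26% of all genes. All 10 fibroblast markers were fitted lower (52.4% of all genes) and none was called by edgeR (3.30% of all genes were called lower). By edgeR's unadjusted p under 0.05, 9 of them were lower, against 11.0% of all genes. Their sums were 2831 to 3239 CPM in controls and 2241 to 2258 CPM in iSM KO. Most of each sum came from Col1a1, Col1a2 and Gsn, with control means of 931, 1225 and 556 CPM. Of the 10 markers, 4 were lower in iSM KO without overlap between groups (13.0% of all genes). The 10 macrophage markers summed to 43.7, 39.9 and 39.8 CPM in controls 1 to 3 and to 15.4, 15.7 and 46.7 CPM in iSM KO 1 to 3. Sample iSM KO 3, high for EC genes among iSM KO, was high for these too. The controls did not share the EC pattern, as the EC genes summed to 1686, 1992 and 1062 CPM in controls 1 to 3. Red blood cell genes summed to 105, 98.1 and 45.2 CPM in controls and 144, 6.73 and 10.3 CPM in iSM KO, an order unlike that of the EC genes. No platelet gene was called by edgeR, with 1 of 6 higher at an unadjusted p under 0.05 (1842 of 16565 genes over all). That gene, Gp9, passed the count filter through iSM KO only. The part of cell composition in the EC values was not tested.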

How the data were processed

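The authors removed ribosomal RNA, sequenced paired 150-base reads on a NovaSeq instrument and quantified genes with DRAGEN against mm10 and Ensembl release 101, per the paper's methods and the submitters' processing notes. The deposited values are expected counts per gene, made by the authors with DRAGEN and not all whole, and were rounded. Whether counting used strand is not given in the sources used here. A gene was tested if each sample of either group had over 10 counts (16565 of 55487), the study's own filter. Groups came from the labels, 3 samples each. The whole table was fitted with edgeR 4.0.16 (R 4.3.3), quasi-likelihood test, TMM factors, with FDR by Benjamini-Hochberg over all tested genes and a threshold of 0.05. DESeq2 1.42.0 was an alternative. A second fit set library size to the geometric mean of 12 endothelial genes. CPM used TMM-scaled library sizes for levels, and exon lengths came from GENCODE M21 (GRCm38). The scripts were tested on simulated data. The EC genes and lists were chosen with earlier results of these data known. Named in full were called EC genes, Pecam1, Vwf and the 2 genes highest per length. The methods name 3 mice per group, as many as there are libraries. Intervals on summed counts cover counting error only.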

Additional observations from a re-analysis of the deposited data

How the results depend on the processing

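Over 11 alternatives (DESeq2, its size factors in edgeR, no count filter, a replicate block, no structural RNA genes and leaving out each sample), the median log2 fold change of the EC genes stayed negative, from -1.17 to -0.37. The count of EC genes called lower went from 0 to 7 with no count filter (2.81% of all genes) and ranged from 0 to 7 over the left-out samples (1.20% to 3.83% of all genes), with 1 called without control 1 (Gpihbp1). The count called higher was 0 with the replicate block (2.76% of all genes) and 0 to 1 over the left-out samples (1.85% to 4.55%). Past a fold change of 2 as well, 2 were called with no filter (2.05%), and 0 to 5 over the left-out samples (1.72% to 3.13%). Relative to the 12 endothelial genes, 0 to 1 was called over the left-out samples (0.598% to 3.33% of all genes). With summed reference counts 0 were called (2.15%). In a fit chosen after seeing the data, 0 were called without Eng and Calcrl (1.07%). A fit with each gene keeping its own spread, also chosen after seeing the data, called 0 EC genes and 0 of all genes. Of the other genes in the endothelial lists 12 were called (7.56% of all genes). Over the left-out samples 7 to 13 were called (516 of 16883 to 1397 of 16667 genes over all). Over the left-out samples the sign turned for Kdr, between -0.67 and 0.16, and for Plvap, between -0.82 and 0.093. The cause was not tested. Same-numbered samples had correlations of -0.13, -0.046 and -0.11 in their deviations from group means, which gave no sign that the numbers pair the samples. Deviations from means of 3 samples cannot exclude a pairing. The replicate block left 775 genes called in place of 1252, and Flt1 at an FDR of 0.0523. Members under about 3 CPM are limited by depth.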
